A study of Mus musculus with 9 samples.

Results

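Matrix proteases and their inhibitors were examined in bulge stem cells of the mouse hair follicle under 2 diets. The members were taken by name alone: every gene symbol that begins with Mmp, Adam, Adamts or Timp followed by a digit. That gave 78 of the 35006 symbols in the count tables, made up of 23 Mmp, 32 Adam, 19 Adamts and 4 Timp genes. Cells with the surface antigens CD34 and integrin alpha6 had been sorted from C57BL/6J mice that lived 1 to a cage. The AL group (ad libitum, 5 libraries) could eat without limit, and the DR group (dietary restriction, 4 libraries) was given 70% of the food eaten by AL mice of like weight and sex. Cells of 3 mice were pooled per group, and the labels do not say whether each library had its own pool, so the p-values below measure the spread between these libraries, which may be partly technical. Age, sex, hair cycle stage and irradiation state are not given for any library, and 2 animal facilities are named without saying which library came from which.

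Matrix metalloproteinases (MMPs) are zinc enzymes that cut collagens, laminins and other proteins of the extracellular matrix, either after secretion or from an anchor in the cell membrane. ADAMs are membrane proteins, many of which shed the outer part of growth factors, receptors and adhesion molecules, while ADAMTS enzymes are secreted and act on proteoglycans, procollagens and fibrillin-rich fibres. TIMPs are small secreted proteins that block these enzymes, TIMP3 being the one bound to the matrix. In the hair follicle such enzymes are known for the remodelling of basement membrane and dermal sheath that goes with each growth cycle.

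Gene totals ran from 26119459 to 33559312 counts per library. CPM are reads of a gene divided by the library's total and put on a common scale. On these totals 3 counts, the level that a count of 0 in a library still allows, correspond to 0.0894 to 0.115 CPM. With the TMM scaling used below, 3 counts are 0.0816 CPM in AL replicate 2 and 0.113 CPM in AL replicate 5. Values are CPM after TMM scaling, and the test is edgeR's quasi-likelihood test with Benjamini-Hochberg adjustment over all 15447 tested genes, with a threshold of 0.05. Bulge and basal keratinocyte markers were abundant in every library (summed CPM of 10 genes 27462 to 38415 in AL and 20805 to 22256 in DR). All 10 were detected. Of these, 5 passed lower in DR (Krt5, Krt14, Krt15, Sox9 and Cd34) and none higher. Cd34, the gene of a sorting antigen, had a log2 ratio of DR to AL of -1.18. Some libraries stood apart. AL replicate 5 held 36.7 CPM of Mki67, the proliferation marker. The rest of AL held 126 to 259 CPM and DR held 6.47 to 15.4 CPM. Markers of differentiated keratinocytes and sebocytes summed to 1553 and 1376 CPM in AL replicates 4 and 5 and to 1465 in DR replicate 1. The other libraries held 2559 to 4588 CPM of them. Endothelial markers summed to 55.6 CPM in DR replicate 1, 33.1 in DR replicate 2 and 26.0 in AL replicate 1, while the other 6 libraries held 3.58 to 15.0, and immune markers were likewise highest in those 3 (54.1 to 76.7 CPM, against 16.7 to 34.8).

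Of the 78 members, 37 had enough counts to be tested, 27 had a few counts and 14 had none in any library. The restricted diet went with lower levels of several matrix-cutting enzymes and higher levels of 3 others: 10 of the 37 tested members fell, 3 rose and 24 did not pass. These 13 are 35.1% of the tested members, and over all tested genes 40.7% passed (21.7% lower and 19% higher), so the share of members that passed is near the background. At least 2-fold changes were found for 6 members that fell and 1 that rose, where 7.48% and 3.99% of all tested genes passed with such a change. Taken as the log2 ratio of DR to AL, the median of the tested members was -0.24, against -0.02 over all tested genes. With library sizes left unscaled, 10 members fell and 1 rose. AL and DR values were fully apart in 9 of the 37, where 32.9% of all tested genes did not overlap.

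**Figure D1:**
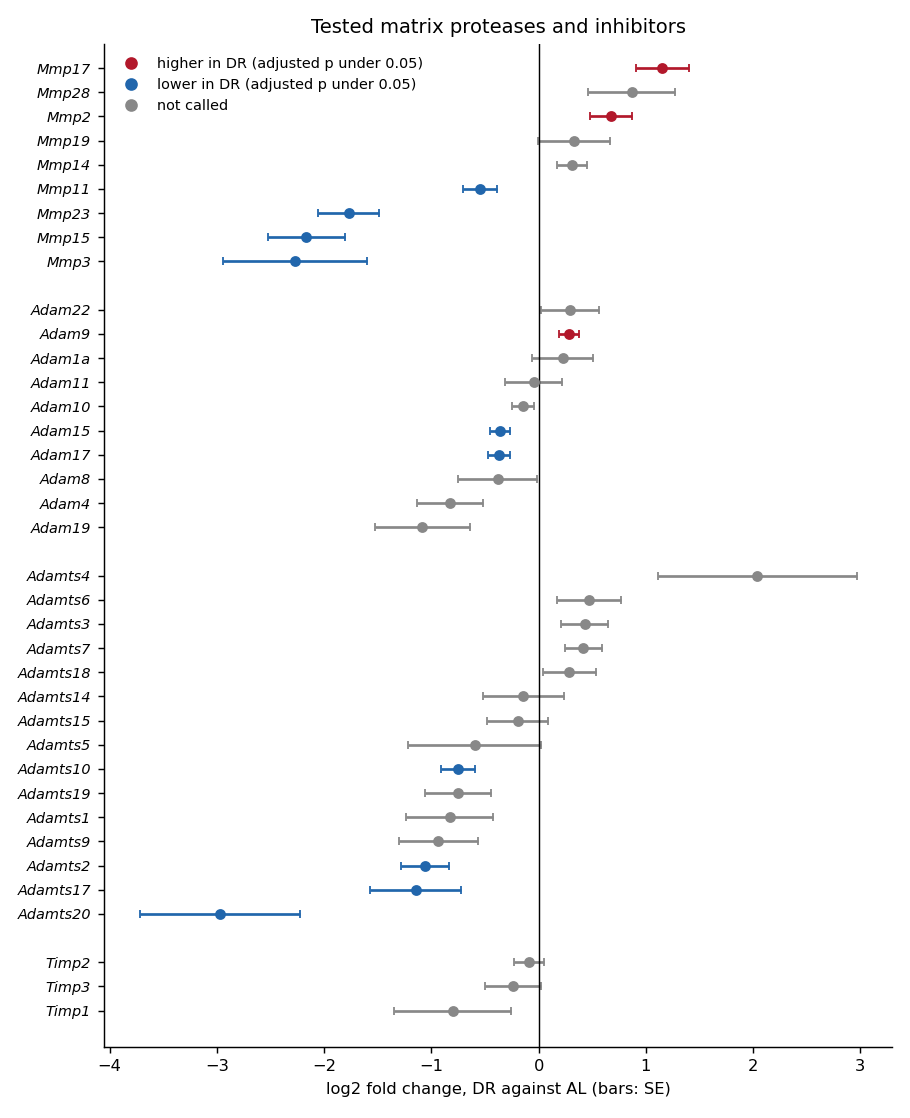
Log2 fold change of DR against AL (x axis) for each of the 37 tested members, grouped by family from Mmp at the top to Timp at the bottom, with bars for the standard error. Blue points passed the test lower in DR (10), red points passed higher in DR (3) and grey points did not pass.

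Among the MMP genes both directions were found: 4 of the 9 tested were lower in DR and 2 higher (21.7% and 19% of all tested genes), with a median log2 ratio of 0.31. Mmp15 encodes a membrane-type MMP. It stood at 42.6, 62.3, 56.0, 33.4 and 16.8 CPM in AL replicates 1 to 5 and at 5.65, 10.7, 12.6 and 8.74 CPM in DR replicates 1 to 4. Every DR library lay below every AL library, AL replicate 5 being the nearest. The log2 ratio was -2.17 (SE 0.36, edgeR adjusted p = 8.9e-04).

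Mmp23, which encodes a small membrane-held MMP that is cut free during secretion, had the smallest p of all members. Its levels were 1.52, 1.20, 0.972, 1.68 and 0.828 CPM in AL and 0.288, 0.359, 0.338 and 0.451 CPM in DR. The diets did not overlap, and AL replicate 5 was again the lowest of AL. This gave a log2 ratio of -1.77 (SE 0.29, edgeR adjusted p = 7.7e-04), on raw counts of 22 to 49 in AL and 8 to 14 in DR.

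Mmp3, or stromelysin 1, was scarce: 0.975, 0.734, 0.838 and 0.892 CPM in AL replicates 1 to 4, 0.0376 in AL replicate 5 and 0.108, 0.15, 0.0376 and 0.258 CPM in DR. The single count in AL replicate 5 put that library among the DR values. Mmp3 fell by 2.27 on the log2 scale (SE 0.67, edgeR adjusted p = 0.020), a call lost when DR replicate 3 was left out (0.058) or in limma-voom (adjusted p = 0.12). Leaving out AL replicate 4 with DR replicate 1 (0.077) or DR replicates 1 and 2 (0.12) also ended the call. Mmp11, or stromelysin 3, best known from stroma next to epithelium, stood at 11.2 to 14.0 CPM in AL (median 12.0) and at 10.7, 9.28, 7.25 and 6.55 CPM in DR. The diets did not overlap, though DR replicate 1 at 10.7 CPM lay next to AL replicate 1 at 11.2 CPM. It fell by 0.55 (SE 0.16, edgeR adjusted p = 0.019), a call lost when DR replicate 3 (0.064) or DR replicate 4 (0.054) was left out.

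Among the MMPs that rose, Mmp17 encodes a membrane-type enzyme held by a lipid anchor. It stood at 3.29, 3.75, 2.88, 4.56 and 7.08 CPM in AL and at 8.13, 9.07, 9.85 and 11.3 CPM in DR. The diets did not overlap and AL replicate 5 lay closest to DR. Its log2 ratio was 1.15 (SE 0.24, edgeR adjusted p = 0.0035). Mmp15 and Mmp17, both of the membrane type, thus passed in opposite directions.

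**Figure D2:**
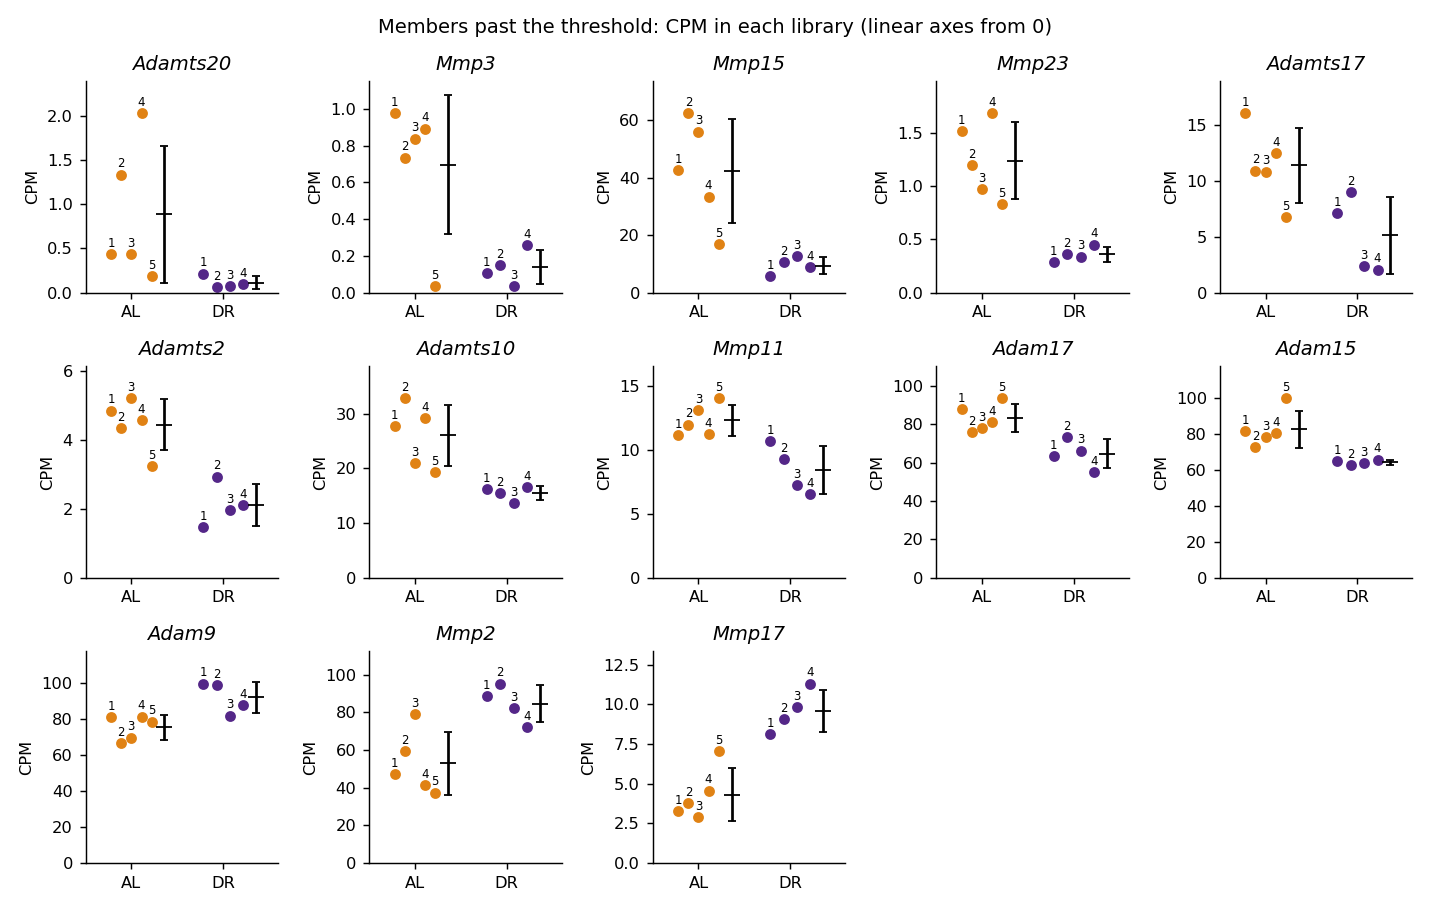
CPM in each library (y axis, linear from 0; the digit is the replicate number) of the 13 members past the threshold, with the mean and SD of each diet as black bars. Mmp15, Mmp23, Mmp11, Adamts2, Adamts10, Adam15 and Adam17 were lower in every DR library than in any AL library, Mmp17 and Adam9 were higher, and the other 4 overlapped.

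Mmp2, Mmp14 and Timp2 are known to work together: the membrane enzyme MMP14 cuts the pro-form of the gelatinase MMP2 while TIMP2 bridges them. Mmp2 stood at 47.4, 59.3, 78.8, 41.3 and 37.3 CPM in AL and at 88.4, 95.2, 82.0 and 72.2 CPM in DR. Only AL replicate 3 overlapped with DR, lying above DR replicate 4. Mmp2 rose by 0.68 on the log2 scale (SE 0.20, edgeR adjusted p = 0.018). The call was lost with library size only (adjusted p = 0.054), without AL replicate 4 and DR replicate 1 (0.071) and without DR replicates 1 and 2 (0.13, log2 ratio 0.55). Pdgfra, a receptor of fibroblasts, was at 0.583 to 1.41 CPM in AL and at 3.81 and 5.27 CPM in DR replicates 1 and 2, and at 1.43 and 1.58 CPM in DR replicates 3 and 4. Of the other tested genes on its marker list, Col1a1 and Col1a2 fell (log2 ratio -3.34 and -1.40). Dcn (0.81) and Fbn1 (-0.12) did not pass. The part of Pdgfra in the Mmp2 result was not tested.

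Mmp14 was at 175, 161, 169, 208 and 237 CPM in AL and at 191, 228, 257 and 267 CPM in DR. The diets overlapped through AL replicates 4 and 5 and DR replicate 1. The log2 ratio of 0.31 (SE 0.14) did not pass (edgeR adjusted p = 0.097), but it did without AL replicate 5 (0.026), without DR replicate 1 (0.043) and in limma-voom with quality weights (0.019). Timp2, the most abundant inhibitor, stood at 615, 482, 608, 578 and 798 CPM in AL and at 576, 567, 627 and 543 CPM in DR. All DR values lay inside the AL range, and the log2 ratio was -0.09 (SE 0.14, adjusted p = 0.63), which became 0.02 without AL replicate 5.

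The other inhibitors did not pass either. Timp3 was at 33.6, 48.6, 35.5, 59.6 and 29.4 CPM in AL and at 55.5, 28.1, 32.3 and 24.5 CPM in DR (log2 ratio -0.24, SE 0.26, edgeR adjusted p = 0.50). DR replicate 1 was far above the other DR libraries. In the GENCODE M21 annotation 21.3% of the Timp3 exon length is shared with Syn3 on the other strand, so its level is uncertain, since the library kit does not mark strand. Timp1 was near the detection floor, at 0.0376 to 0.755 CPM in AL and 0.161 to 0.324 CPM in DR (log2 ratio -0.80, SE 0.55, adjusted p = 0.27); without AL replicate 5, which held 1 count, the change was -1.08 (adjusted p = 0.032). Timp4 had too few counts for the filter: 1, 0, 1, 2 and 0 counts in AL and 58, 22, 3 and 1 in DR. Its counts rose above 3 only in DR replicates 1 and 2. Those are the DR libraries with the higher endothelial marker sums, 55.6 and 33.1 CPM, whose part in the Timp4 counts was not tested. AL replicate 1, with a sum of 26.0 CPM, had 1 count of Timp4. With no filter Timp4 passed (edgeR adjusted p = 0.0064), and the gene is given here as counts only.

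**Figure D3:**
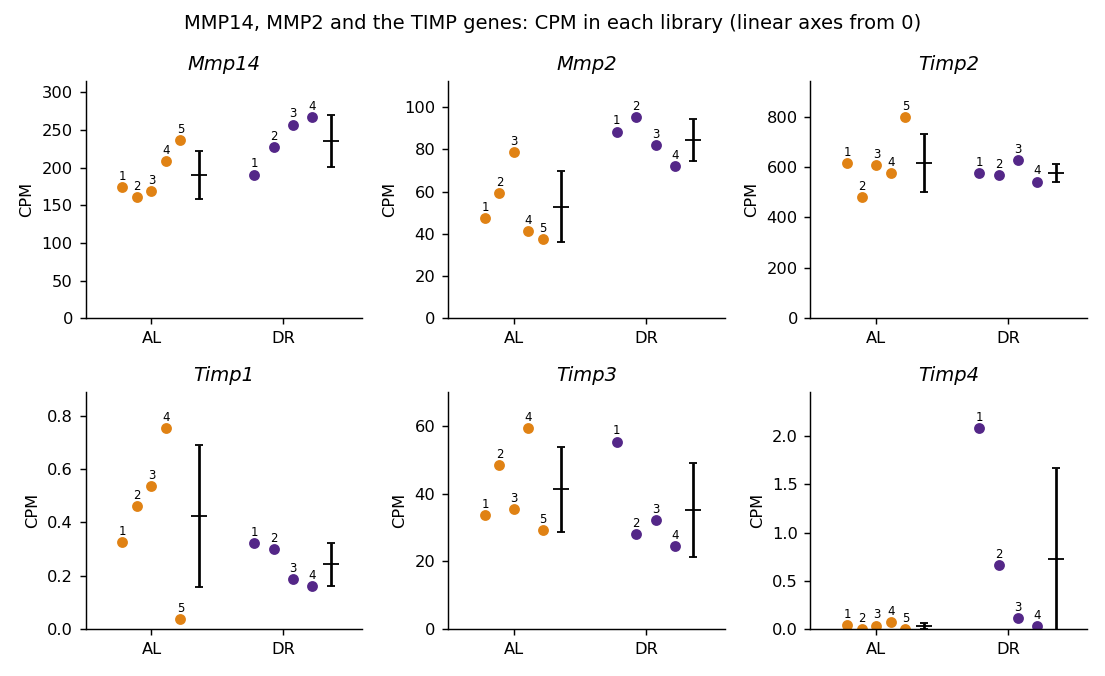
CPM in each library (y axis, linear from 0; the digit is the replicate number) of Mmp14, Mmp2 and the 4 Timp genes, with the mean and SD of each diet as black bars. Of these 6 genes Mmp2 passed the threshold, Timp4 has 58 and 22 of its 88 counts in DR replicates 1 and 2, and error bars end at the axis where mean minus SD is below 0.

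ADAMTS genes that differed were all lower in DR: 4 of 15 tested fell and none rose (26.7%, against 21.7% of all tested genes lower). Adamts2, which trims the amino end of fibrillar procollagens, stood at 4.84, 4.32, 5.2, 4.56 and 3.24 CPM in AL and at 1.47, 2.93, 1.95 and 2.1 CPM in DR. The diets did not overlap (log2 ratio -1.06, SE 0.22, edgeR adjusted p = 0.0034). The procollagen genes Col1a1 (49.4 ± 11.8 CPM in AL against 4.88 ± 3.36 CPM under DR, SD, n = 5 and 4) and Col1a2 (51.9 ± 15.5 and 19.6 ± 4.37) fell as well (log2 ratio -3.34 and -1.40). Its relatives Adamts3 (0.43, SE 0.22, adjusted p = 0.14) and Adamts14 (-0.14, SE 0.38, adjusted p = 0.79) did not pass, though Adamts3 did without AL replicate 4 (0.63, adjusted p = 0.017).

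Adamts10, whose protein binds fibrillin, stood at 27.7, 32.8, 21, 29.2 and 19.4 CPM in AL and at 16.2, 15.5, 13.7 and 16.5 CPM in DR. Every DR library was lower, with AL replicate 5 nearest to DR (log2 ratio -0.75, SE 0.16, edgeR adjusted p = 0.0032). Adamts17, of the same branch as Adamts19, stood at 16.0, 10.9, 10.8, 12.5 and 6.74 CPM in AL and at 7.08, 8.98, 2.41 and 2.06 CPM in DR. DR replicates 1 and 2 lay above the lowest AL library and DR replicates 3 and 4 far below it. The log2 ratio of -1.15 (SE 0.42, edgeR adjusted p = 0.0496) was just past the threshold. It was lost without AL replicate 1, 2, 3 or 4 (adjusted p 0.10, 0.075, 0.077 and 0.080), without DR replicate 3 or 4 (0.12 and 0.11), without AL replicate 4 and DR replicate 1 (0.075), with DESeq2 size factors (0.051) and with robust dispersion (0.060). Without DR replicates 1 and 2 the log2 ratio was -2.35 (adjusted p = 0.0016).

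In Adamts19, too, DR replicates 1 and 2 lay above DR replicates 3 and 4, with 38.9, 64.8, 36.5, 52.4 and 29.4 CPM in AL and 34.9, 38.3, 16.0 and 16.3 CPM in DR. It did not pass (log2 ratio -0.75, SE 0.31, edgeR adjusted p = 0.073), but did without AL replicate 5 (0.039), without DR replicate 2 (0.036) and without DR replicates 1 and 2 (-1.46, adjusted p = 0.0065). The proteoglycanase Adamts20, known for its part in melanoblast survival, was under 1 CPM on average in both diets and fell by 2.97 on the log2 scale (SE 0.75, adjusted p = 0.0089). It was at 0.433, 1.33, 0.436, 2.03 and 0.188 CPM in AL and at 0.216, 0.0598, 0.0752 and 0.0967 CPM in DR. AL replicate 5 lay inside the DR range. Some melanocyte genes were lower in DR as well: Dct went from 2.71 to 14.0 CPM in AL to 1.0 to 2.06 CPM in DR, and Tyrp1 and Kit also fell (3 of 6 tested of a list of 8). The summed level of the 8 was 112 to 231 CPM in AL and 125 to 177 CPM in DR, most of it Mitf, and none was at 0 in every library. Their part in the Adamts20 result was not tested.

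Adamts1, a proteoglycanase that cuts aggrecan and versican, was among the most abundant members and the most variable of them. It stood at 534, 435, 360, 1547 and 999 CPM in AL and at 598, 380, 297 and 470 CPM in DR. AL replicates 4 and 5 were above every DR library and the other 3 AL libraries were inside the DR range. The log2 ratio of -0.83 (SE 0.41) did not pass (edgeR adjusted p = 0.13), and without AL replicate 4 it was -0.42. Adamts4, another aggrecan-cutting enzyme, was at 0.136 to 0.903 CPM in AL and at 5.75, 0.748, 0.263 and 0.290 CPM in DR. Its log2 ratio of 2.04 (SE 0.93, adjusted p = 0.10) was 0.06 without DR replicate 1. The other proteoglycanases tested were Adamts9 (-0.93, adjusted p = 0.064), Adamts5 (-0.60, 0.47) and Adamts15 (-0.20, 0.61). Adamts9 passed when AL replicate 2 (-1.06, adjusted p = 0.047) or DR replicate 2 (-1.24, 0.030) was dropped.

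**Figure D4:**
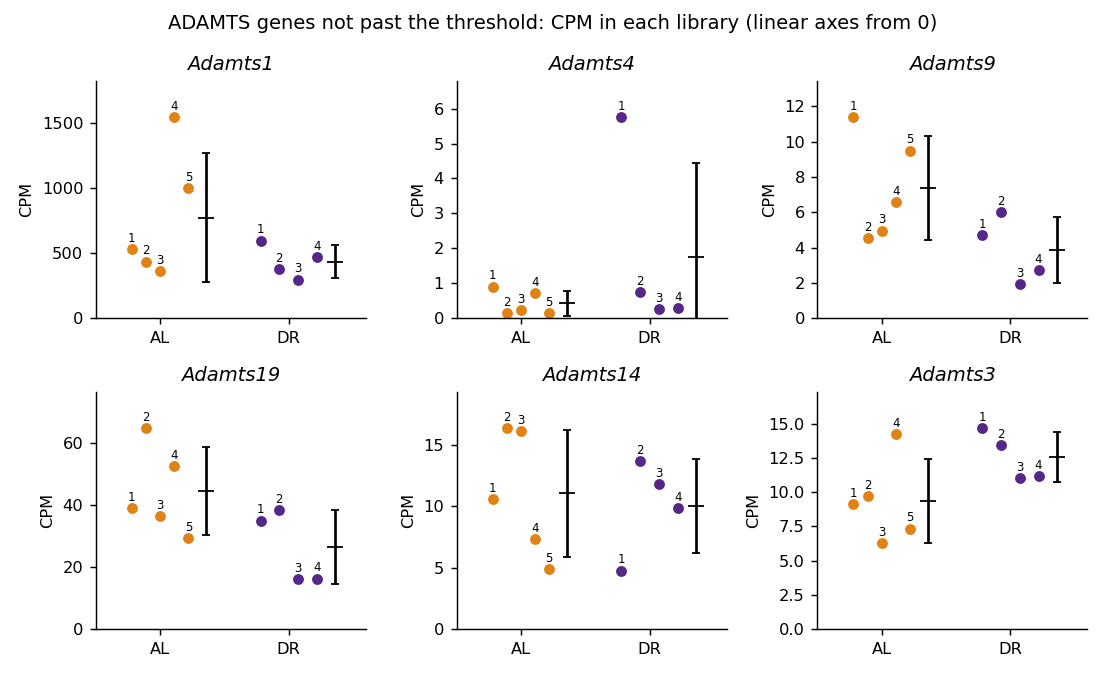
CPM in each library (y axis, linear from 0; the digit is the replicate number) of 6 ADAMTS genes that did not pass, with the mean and SD of each diet as black bars that end at the axis where they would pass 0. Adamts1 is highest in AL replicates 4 and 5, Adamts4 in DR replicate 1, and Adamts19 is split between DR replicates 1 and 2 and DR replicates 3 and 4.

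Changes were small among the shedding ADAMs that passed. Adam17, the sheddase of tumour necrosis factor and of several EGF receptor ligands, stood at 88.0, 76.0, 78.1, 81.4 and 93.6 CPM in AL and at 63.4, 73.5, 66.3 and 55.2 CPM in DR. The diets did not overlap, and Adam17 fell by 0.37 on the log2 scale (SE 0.10, edgeR adjusted p = 0.013). Adam15 fell by 0.36 (SE 0.09, adjusted p = 0.010), from 82.0, 72.9, 78.3, 80.6 and 100 CPM to 65.3, 62.9, 63.7 and 65.8 CPM, again with no overlap. An antisense gene covers 20.6% of its exon length in GENCODE M21, and without DR replicates 1 and 2 it did not pass (adjusted p = 0.066).

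Adam9, a widely expressed sheddase, was the member that rose: 81.0, 66.6, 69.7, 81.4 and 78.6 CPM in AL against 99.8, 99.0, 81.9 and 87.6 CPM in DR. The gap between the diets was narrow, AL replicate 4 at 81.4 CPM lying next to DR replicate 3 at 81.9 CPM. The log2 ratio was 0.29 (SE 0.09, edgeR adjusted p = 0.031). It was lost with upper-quartile scaling (adjusted p = 0.076), library size only (0.088) and no filter (0.052), without AL replicate 2 or 3 (0.059 and 0.075) and without DR replicate 1 or 2 (0.077 and 0.084). Leaving out AL replicate 4 with DR replicate 1 (0.069) or DR replicates 1 and 2 (0.25) also ended it.

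Adam10, the sheddase of Notch receptors and of E-cadherin, stood at 80.8, 76.9, 81.0, 77.7 and 62.6 CPM in AL and at 60.9, 74.1, 74.9 and 64.6 CPM in DR. AL replicate 5 was inside the DR range and the other AL libraries were above it. The log2 ratio of -0.14 (SE 0.10) did not pass (edgeR adjusted p = 0.28). Adam19 (-1.08, adjusted p = 0.070) passed without AL replicate 5 (-1.33, adjusted p = 0.0034), where it was lowest of AL (0.527 CPM, others 1.95 to 3.43). Adam8 (-0.38, adjusted p = 0.44) did not pass, and neither did Adam11 and Adam22, whose proteins lack protease activity (-0.05 and 0.29, adjusted p 0.90 and 0.42).

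Compared per kilobase of exon (lengths from GENCODE M21, which may differ from the annotation used for counting), Timp2 was the highest member in both diets, at 158 ± 29.5 CPM per kb under AL feeding and 148 ± 9.11 under DR (SD, n = 5 and 4). Adamts1 came next at 146 ± 93.9 and 82.3 ± 24.3 CPM per kb, and in AL these 2 did not differ beyond their spread. Mmp14 was in the third place at 31.9 ± 5.36 and 39.5 ± 5.76 CPM per kb. Adam9 (18.3 ± 1.66), Mmp2 (15.7 ± 4.97) and Adam10 (15.4 ± 1.55) followed in AL, with overlapping spreads. In DR the order of Mmp2 (25.1 ± 2.90) and Adam9 (22.4 ± 2.13) was the reverse, within their spread. Mmp15 went from rank 9 in AL (7.82 ± 3.36 CPM per kb) to rank 16 in DR (1.74 ± 0.549).

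The members without a test include 18 of the 20 in the group of germ-line and other ADAMs. All 4 collagenases had at most 12 counts in any library, Mmp13 being the one with 12, in AL replicate 1. The gelatinase Mmp9, which neutrophils and macrophages carry, had 20, 2, 5, 0 and 1 counts in AL and 9, 18, 4 and 20 in DR, with overlap of the diets. Summed immune markers in the same libraries were 54.1, 19.8, 16.7, 20.1 and 17.5 CPM in AL and 76.7, 56.0, 22.5 and 34.8 CPM in DR, and their part in the Mmp9 counts was not tested. Of the 27 untested members with a count, 2 passed with no filter. Those were Timp4 and Adamts12, the latter at 4 to 17 counts in AL and 1 to 3 in DR (edgeR log2 ratio -1.83, adjusted p = 0.023). The 14 members with no count were 11 ADAMs, Mmp7, Mmp20 and Adamts16.

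Promoters are shown for the members that fell at least 2-fold and reached 1 CPM in AL: Mmp15, Mmp23, Adamts2 and Adamts17. Each run covers 250 bases before to 50 after a RefSeq gene start in GRCm38.p6, a later build than the mm9 of the counts. Capitals mark matches, on either strand, to 5 short motifs. The AP-1 motif was searched as TGANTCA, where N is any base. A hexamer bound by the glucocorticoid receptor was searched as AGAACA, and the GC box, known for binding SP1, as GGGCGG. The TATA box was searched as TATAAA and the E-box, a motif of helix-loop-helix factors, as CACGTG. Mmp15 lies at chr8:95352046-95352345 (plus strand), the upstream start of Mmp23 at chr4:155653335-155653634 (minus strand), Adamts2 at chr11:50601835-50602134 (plus strand) and Adamts17 at chr7:66839485-66839784 (plus strand).
Mmp15: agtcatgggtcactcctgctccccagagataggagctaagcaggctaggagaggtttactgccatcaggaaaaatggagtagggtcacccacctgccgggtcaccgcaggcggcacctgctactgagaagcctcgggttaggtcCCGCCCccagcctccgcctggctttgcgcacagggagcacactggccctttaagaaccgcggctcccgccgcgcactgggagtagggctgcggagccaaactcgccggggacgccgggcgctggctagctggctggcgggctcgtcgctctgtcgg
Mmp23: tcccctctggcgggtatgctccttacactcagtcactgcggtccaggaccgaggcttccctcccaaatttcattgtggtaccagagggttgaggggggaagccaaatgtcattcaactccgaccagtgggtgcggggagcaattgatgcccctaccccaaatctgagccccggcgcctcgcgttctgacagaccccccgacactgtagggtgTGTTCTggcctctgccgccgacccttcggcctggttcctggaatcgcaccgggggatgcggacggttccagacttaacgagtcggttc
Adamts2: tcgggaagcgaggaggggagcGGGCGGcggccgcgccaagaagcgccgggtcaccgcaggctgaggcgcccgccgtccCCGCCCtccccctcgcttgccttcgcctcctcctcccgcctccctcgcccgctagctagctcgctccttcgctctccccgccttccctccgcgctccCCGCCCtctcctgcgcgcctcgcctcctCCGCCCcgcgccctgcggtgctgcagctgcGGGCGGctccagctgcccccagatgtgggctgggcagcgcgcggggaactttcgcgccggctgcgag
Adamts17: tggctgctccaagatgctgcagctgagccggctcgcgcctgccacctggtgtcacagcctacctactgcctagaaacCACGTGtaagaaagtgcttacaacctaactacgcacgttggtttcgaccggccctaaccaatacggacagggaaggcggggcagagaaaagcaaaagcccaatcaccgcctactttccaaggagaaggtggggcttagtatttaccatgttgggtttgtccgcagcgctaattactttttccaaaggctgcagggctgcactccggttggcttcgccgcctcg

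The Adamts2 window held 5 GC boxes and was 77.3% G and C, against a median of 52.7% over all promoters in the table. Mmp15 had 1 GC box, 106 bases before the start. Mmp23 had 1 receptor hexamer, 38 bases before this start, and Adamts17 had 1 E-box. The table gave a promoter for 24 of the 37 tested members and 9 of the 13 that passed; Mmp2, Mmp17, Adam9 and Adamts10 had none. GC boxes were in 20 of 27 starts of tested members and in 3 of 26 starts of untested ones, where 35.7% of all 32851 promoters of this length hold the motif. TATA boxes were in 2 of 27 and 12 of 26 (13.6% of all promoters), and AP-1 matches in 2 of 27 and 10 of 26 (7.81% of all). Mmp3 and Adam19 were the tested members with an AP-1 match. Among the untested, Mmp1a, Mmp1b, Mmp7, Mmp10, Mmp12, Mmp13, Mmp20 and Adam29 had both an AP-1 and a TATA match. The receptor hexamer was in 4 of 27 and 6 of 26 starts (19.0% of all). It was in 3 of the 10 starts of members that fell, from Mmp11 and Mmp23. The windows of the 2 Mmp23 starts overlap and share 1 site, 38 and 132 bases before them. That site is counted for each start, here and in the 4 of 27.

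AL replicate 5 was the lowest AL library for 19 of the 37 tested members and the highest for 8. Of the 10 that fell it was the lowest for 7 (Mmp15, Mmp23, Mmp3, Adamts2, Adamts10, Adamts17 and Adamts20). For Adam15, Adam17 and Mmp11 it was not the lowest. It was also the AL library with the least Mki67, and a link of Mki67 to these levels was not tested. Over the 9 libraries the levels most like that of Mmp23 were those of Adamts10 (Pearson r = 0.93 of log2 of CPM + 1), Adamts2 (0.88), Mmp3 (0.87), Mmp15 (0.85) and Adamts20 (0.80). For Mmp17 they were Mmp14 (0.87), Adamts7 (0.80), Adam9 (0.70), Adamts3 (0.50) and Mmp2 (0.40). These values describe libraries that share the diet contrast and have no test.

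Of 10 marker genes of fibroblasts and dermal papilla 5 were tested, of which 2 fell (Col1a1 and Col1a2) and 1 rose (Pdgfra). The 10 genes summed to 74.8 to 125 CPM in AL and to 20.4 to 43.1 CPM in DR. Most of that sum was Col1a1 and Col1a2; Lum, Dpt, Twist2 and Pdgfrb stayed under 1 CPM in every library, Dcn was at 0.151 to 1.91 CPM in AL and 0.564 to 3.23 in DR, and Pdgfra rose. None of the 10 was at 0 in all libraries. AL replicate 5, lowest of AL for 7 of the 10 members that fell, had a sum of 110 CPM, within the range of the other AL libraries. Fewer cells of a type and less RNA per cell cannot be told apart in such bulk samples. The part of these markers in the levels of the members that fell was not tested.

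Other genes of matrix proteolysis, from lists made by role, gave counts near the background of 40.7% or below it. In the plasminogen system 2 of 10 tested genes fell and none rose. Those were Plau, the urokinase that makes plasmin (12.4 ± 2.35 to 5.92 ± 1.0 CPM, SD, n = 5 and 4; log2 ratio -1.06, SE 0.18, edgeR adjusted p = 1.0e-03), and Serpine2, an inhibitor of it (-0.86, adjusted p = 0.0059). The urokinase receptor gene Plaur had a log2 ratio of -1.11 (edgeR adjusted p = 0.092) and missed the threshold.

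Of 10 tested regulators of ADAM10 and ADAM17, 3 rose and 1 fell. The tetraspanin gene Tspan5, which guides ADAM10 out of the endoplasmic reticulum, rose from 18.7 ± 3.12 to 49.5 ± 12.5 CPM (SD, n = 5 and 4; log2 ratio 1.40, SE 0.18, edgeR adjusted p = 1.9e-04). Tspan15, of the same tetraspanin group, rose by 1.24 from 0.442 to 1.05 CPM, and Frmd8, which stabilises iRhom with ADAM17, by 0.27. Pdia6, a disulphide isomerase, fell by 0.91 on the log2 scale.

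Of 20 tested tolloid, ADAMTS-like, Reck and convertase genes, 4 rose and 4 fell. Spock2, a matrix proteoglycan, rose by 3.87 (SE 0.17). Pcsk6, a pro-protein convertase, fell from 76.7 ± 6.34 to 19.9 ± 2.84 CPM (SD, n = 5 and 4; log2 ratio -1.95, SE 0.11, edgeR adjusted p = 1.8e-06), while Furin, a convertase that activates MMP14 and ADAM pro-forms, rose by 0.41 (SE 0.11, adjusted p = 0.0096). The ADAMTS-like genes Adamtsl1 and Adamtsl2, which carry no protease domain, both fell. Adamtsl1 fell by 1.44 on the log2 scale. Adamtsl2 had 10 to 72 counts in AL and 0, 0, 0 and 3 in DR, so no fold is given for it.

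Among textbook substrates 4 of 15 fell and 1 rose. Beside Col1a1 and Col1a2, Col4a1 of the basement membrane fell by 0.95 and the heparan sulphate proteoglycan gene Hspg2 by 0.92, and the fibrillin gene Fbn2 rose by 1.33. Of 20 shed ligands and receptors, 2 rose and 1 fell: Il6ra rose by 1.42 and Cx3cl1 by 0.73, and the hyaluronan receptor gene Cd44 fell by 1.17 (SE 0.14, edgeR adjusted p = 1.5e-04). The EGF receptor ligands in that list did not pass.

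**Figure D5:**
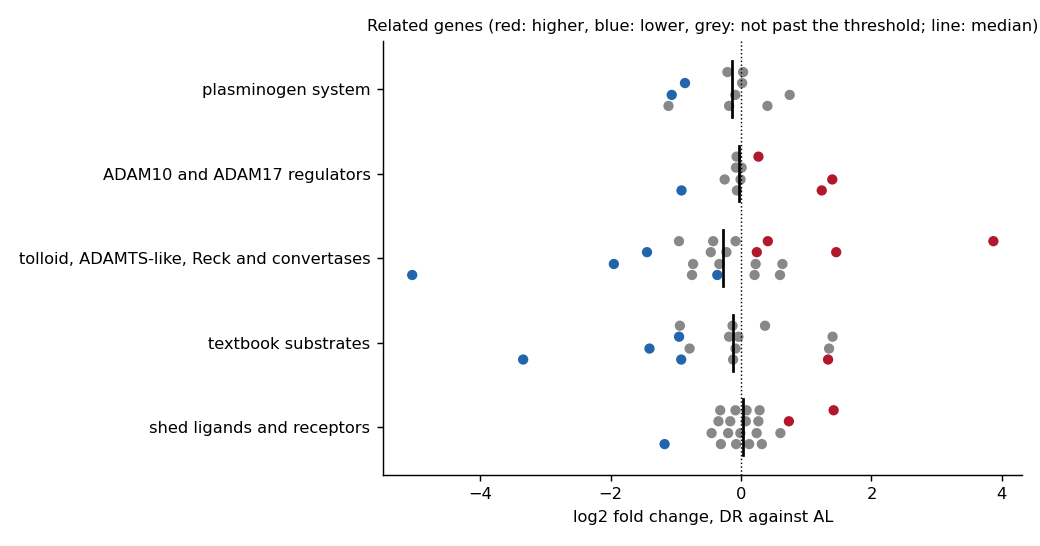
Log2 fold change of DR against AL (x axis) of the tested genes in 5 lists of related genes, 1 point a gene, with the median of each list as a black line. Red and blue points passed the test higher or lower in DR, and the medians lie between -0.28 and 0.03.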

How the data were processed

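RNA of sorted CD34+ alpha6+ cells was sequenced as single reads of 51 cycles from TruSeq RNA v2 libraries, per the labels' protocols. The authors deposited raw counts per gene symbol, 1 file per library, with no normalization; HTSeq 0.11.2, TopHat2 2.1.0, FastQC 0.11.5 and Bowtie are named, with build mm9, in the submitters' processing notes. Which annotation and strand setting were used is not given in the sources used here. Reads without a unique alignment have a line of their own in each file, apart from the genes. That line held 10.4% (DR replicate 2) to 13.6% (AL replicate 3) of a file's counts and is among the lines that name no gene. The 6 lines naming no gene (25.9% to 30.7% of reads) entered neither the library sizes nor the tests.

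Counts were fitted with edgeR 4.0.16 in R 4.3.3 (filterByExpr by diet, TMM, quasi-likelihood test on diet alone). SE values are those implied by the F statistic, and CPM are given as mean ± SD. Alternatives were other scalings, filters and dispersions, the DESeq2 1.42.0 Wald test, limma 3.58.1 (voom), a replicate block, a threshold of 0.01 and leaving out libraries. Data were simulated for the 15447 tested genes, with 200 of them changed. There 2-fold changes were found in 62.0% of cases, 1.5-fold changes in 25.0%, and the share of false calls was 11.2%. In the real data 40.7% of genes passed, a far larger share, so these rates need not hold there. The kit does not mark strand. Close copies can lose reads to the line for reads without a unique alignment, or exchange reads.

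The members and lists were chosen with earlier results of these data known. Named in full are members past the threshold with at least 1 CPM in a diet, the Timp genes, and Mmp2, Mmp9, Mmp14, Adam10, Adam17 and Adamts1. Of each related list up to 4 genes with the smallest p are named. Others (Furin, Hspg2, Pdgfra, Dct, Tyrp1, Kit, Atf3, Fos, Adamts12 and the members that did not pass) were chosen after their values were seen. Gene symbols were matched by name, 1 related gene under an older symbol.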

Additional observations from a re-analysis of the deposited data

Results flagged for a closer look

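3 levels lay far from the rest of their diet. Adam10 was at 62.6 CPM in AL replicate 5, below the 76.9 to 81.0 CPM of the other AL libraries. Mmp3 was at 0.0376 CPM in AL replicate 5, where the other AL libraries held 0.734 to 0.975 CPM. Adamts4 was at 5.75 CPM in DR replicate 1, against 0.263 to 0.748 CPM in the other DR libraries. Each was singled out because its gap to the nearest library was large against the range of its diet; 74 such groups were screened, and chance alone would give about 1 in 20.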

How the results depend on the processing

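Of the 13 members past the threshold, 7 passed in every alternative that tested them (Mmp15, Mmp17, Mmp23, Adam17, Adamts2, Adamts10 and Adamts20). The cause of the changes below was not tested. The 3 members higher in DR became 1 with library size only, 5 in limma-voom with quality weights, 1 at a threshold of 0.01 and 2 to 5 when each library was left out in turn. The 10 lower in DR became 5 at 0.01 and 7 to 14 over the libraries left out. At 0.01 the genes called in all were 1866 higher and 2071 lower, and the related genes called higher were 6 in place of 10. Leaving out DR replicates 1 and 2 (an alternative chosen after seeing the data, as was leaving out AL replicate 4 with DR replicate 1) gave 1 higher member. It turned the log2 fold changes of Adam11 (0.0609), Adam1a (-0.17), Adam22 (-0.0369), Adamts15 (0.0842), Adamts18 (-0.00856), Adamts4 (-0.60) and Adamts6 (-0.15), none of which passed in either fit. Without AL replicate 4 and DR replicate 1, Adam11 (0.00837) and Adam1a (-0.0087) turned. With each library left out in turn, Adam11 ran from -0.165 to 0.15 (above 0 without AL replicate 3 or DR replicate 1), Adamts14 from -0.329 to 0.0933 (above 0 when AL replicate 2, AL replicate 3 or DR replicate 1 was dropped) and Timp2 from -0.156 to 0.018 (above 0 without AL replicate 5). The members whose call changed with 1 library are named in the report, beside Adam4 (adjusted p = 0.033 without AL replicate 5, 0.050 with it), Adamts7 (0.013 without AL replicate 5), Adamts6 (0.046 without DR replicate 3) and Mmp28 (0.046 without DR replicate 1).

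The labels do not say whether same-numbered libraries pair. Their deviations from the diet means correlated at -0.04 to 0.30 over 4 pairs, and those of the 16 other pairs at -0.40 to 0.47. Of 8 libraries, 3 correlated best with their own number. With the replicate block 5 members were higher and 13 lower, and the log2 fold change of Timp2 was 0.0226. Members at under 1 CPM rest on few counts, which limits the precision of their values, Adamts20 and Mmp3 included.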

Other observations

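Adamts1, the most variable of the abundant members, was high in the same AL libraries as Atf3, a stress-induced transcription factor gene chosen here after its values were seen. Atf3 stood at 3999, 4532, 5371, 9529 and 8783 CPM in AL replicates 1 to 5, where Adamts1 was at 534, 435, 360, 1547 and 999 CPM. In DR replicates 1 to 4 Atf3 was at 6313, 2897, 5259 and 5742 CPM and Adamts1 at 598, 380, 297 and 470 CPM. AL replicates 4 and 5 were thus the highest of all 9 libraries for both genes, and the lowest library of the 9 was DR replicate 2 for Atf3 and DR replicate 3 for Adamts1. Neither gene differed between the diets by edgeR (Atf3 log2 fold change -0.35, adjusted p = 0.39). Fos, looked at beside Atf3, did not have this order. It stood at 14155, 17013, 20127, 23920 and 22623 CPM in AL and at 25539, 15285, 24142 and 25806 CPM in DR. DR replicates 1, 3 and 4 thus held more Fos than any AL library (log2 fold change 0.21, edgeR adjusted p = 0.49). The part of either gene in the Adamts1 levels was not tested.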
